A study of Mus musculus with 4 samples.

Results

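The 10 genes described here make, sense and remove prostaglandin E2 (PGE2) in cultured mouse pancreatic ductal cells. They were chosen by name, out of 22869 gene symbols in the deposited tables. They comprise Pla2g4a, the cyclooxygenase genes Ptgs1 and Ptgs2, the PGE synthase genes Ptges and Ptges2, the PGE2-degrading enzyme gene Hpgd and the receptor genes Ptger1, Ptger2, Ptger3 and Ptger4. For Ptger4, which has 2 transcripts in the tables, the transcript with the higher mean count stands for the gene. The other 9 genes have 1 transcript each.

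RNA was sequenced from primary ductal cells of 4 adult C57BL/6 mice. Both groups carried floxed Hhex alleles (HhexL/L), and the 2 control mice, littermates of the others, had no Cre. The 2 mice labelled knockout also carried Sox9CreERT2 (Sox9CreER in the genotype labels), a tamoxifen-activated Cre driven by the promoter of the ductal gene Sox9. Mice were not induced: cells of both groups received 500 nM 4-hydroxytamoxifen in culture for 4 days. The comparison asks how RNA levels in ductal cells differ when Hhex, a homeobox transcription factor gene, is targeted. No group carried the Cre without floxed alleles, so an effect of the Cre and an effect of Hhex loss cannot be told apart.

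Each library held 25257778 to 39582625 counts. Levels are given as CPM, counts scaled to a common library size with TMM factors, and levels of different genes are compared on the deposited RPKM values, which are divided by transcript length. Hhex itself stood at 24.8 and 17.7 CPM in control cells against 23.6 and 39.0 CPM in labelled knockout cells (edgeR adjusted p = 0.742), so its count does not bear the label out; the word labelled is therefore kept with the second group. The Cre driver gene Sox9 was at 18.0 and 21.4 CPM in controls and 52.3 and 44.3 CPM in the other group (edgeR adjusted p = 0.0521). The part of Hhex between the loxP sites is not given in the labels. The ductal label was borne out by the level of the keratins. The 12 ductal markers summed to 12540 to 16310 CPM, most of it from Krt18, Krt8 and Krt7. Of the 12, 3 lay above both controls in both libraries labelled knockout and 4 lay below them. Over all transcripts tested these shares were 19.1% and 17%. Muc1, among the lower, stood at 22.7 and 19.2 CPM in control cells against 1.79 and 7.35 CPM in labelled knockout cells. Cftr, also lower, stood at 33.6 and 35.1 CPM against 13.1 and 22.9 CPM. Summed levels of 10 acinar, 8 endothelial and 12 fibroblast and stellate markers were at most 5.14, 13.0 and 27.8 CPM. Labelled knockout replicate 2 alone had Xist at 304 CPM and the Y-linked Ddx3y at 0.548 CPM, against at most 1.75 CPM of Xist and at least 108 CPM of Ddx3y elsewhere, so 1 of the 4 libraries came from a female.

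Prostaglandin synthesis starts when cytosolic phospholipase A2, the product of Pla2g4a, releases arachidonic acid from membranes. The cyclooxygenases Ptgs1, usually constitutive, and Ptgs2, usually induced by growth factors and inflammatory signals, turn it into PGH2, and PGE synthases turn PGH2 into PGE2. PGE2 acts in and around the cell that made it through G protein-coupled receptors, and 15-hydroxyprostaglandin dehydrogenase, the product of Hpgd, inactivates it. Ptger2 and Ptger4 raise cAMP, Ptger3 lowers it and Ptger1 signals through calcium. In the pancreas, Ptgs2 is known for its induction in pancreatitis and in ductal neoplasia, and Ptgs1 is a gene of tuft cells.

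None of the prostaglandin genes was called between the groups by edgeR's quasi-likelihood test, although 1 of them, Ptgs1, was higher in both libraries labelled knockout than in either control. Of the 8 genes with enough counts to be tested, 0 had an adjusted p under 0.05, against 0.177% of the 20949 transcripts tested (0.129% higher and 0.0477% lower). At an unadjusted p under 0.05 there was 1, Ptgs1, against 7.47% of transcripts (4.69% higher and 2.78% lower). DESeq2 called 1 of the 8, also Ptgs1, against 1.69% of transcripts, and limma on the deposited RPKM called 0, against 0.907% of transcripts with a pseudocount of 1 and 1.05% with 0.1. The groups did not overlap for 3 of the 8, Ptgs1 on the higher side and Ptges2 and Ptger4 on the lower, against 36.1% of transcripts in either direction. The median log2 fold change of the 8 genes was -0.04, beside -0.01 over all transcripts tested. Ptger2 and Ptger3 had too few counts to be tested.

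**Figure D1:**
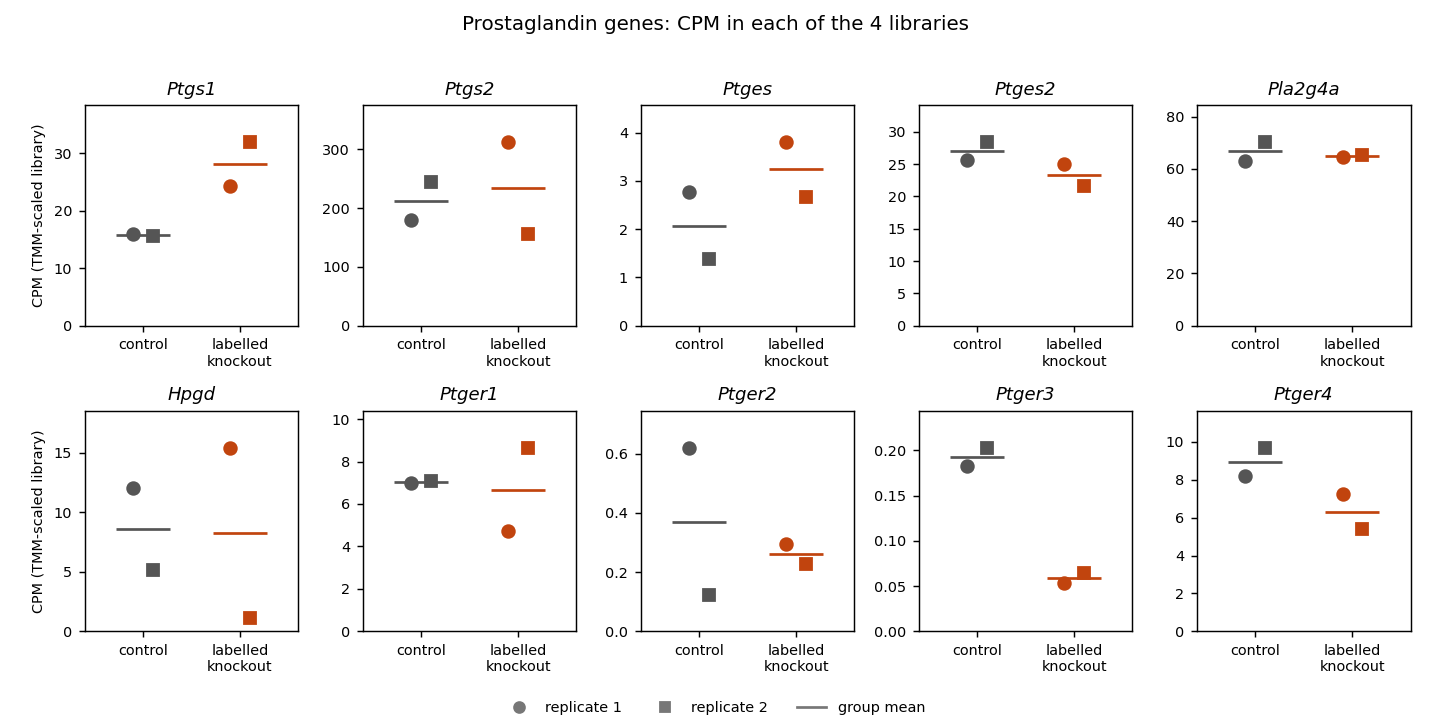
CPM of each of the 10 prostaglandin genes in the 2 control libraries (grey) and the 2 libraries labelled knockout (orange); circles are replicate 1, squares replicate 2, lines the group means, and each panel has its own axis from 0. Ptgs1 lies between 24.3 and 32.0 CPM in labelled knockout cells, above both controls, while Hpgd ranges from 1.10 to 15.4 CPM within that group.

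Per transcript length, Ptgs2 was the highest of the 10 genes and the receptors Ptger2 and Ptger3 were the lowest. Ptgs2 had a mean of 41.0 ± 14.4 RPKM (SD over the 4 libraries), which placed it above 95.09% of all transcripts in the tables. Pla2g4a followed at 17.5 ± 1.33 RPKM and Ptges2 at 9.73 ± 1.18 RPKM, and the ranges of these 3 genes did not overlap. Next came Ptgs1 at 5.81 ± 2.14 RPKM, Hpgd at 3.70 ± 2.92 RPKM, Ptger1 at 2.48 ± 0.552 RPKM and Ptger4 at 2.04 ± 0.487 RPKM. From Ptges2 down to Ptger4 each gene's range overlapped that of the next. The order within each of these neighbouring pairs is therefore not fixed by the libraries. Genes further apart could be separate. Ptges2 (8.34 to 11.1 RPKM) lay above Hpgd (0.480 to 7.10 RPKM), and Ptgs1 (3.94 to 8.40 RPKM) above Ptger1 (1.79 to 3.12 RPKM). Ptges, which encodes the inducible microsomal synthase, had a lower mean than Ptger4, at 0.551 ± 0.219 RPKM. Ptger2 and Ptger3 were at 0.0620 ± 0.0394 and 0.0464 ± 0.0282 RPKM and overlapped each other.

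**Figure D2:**
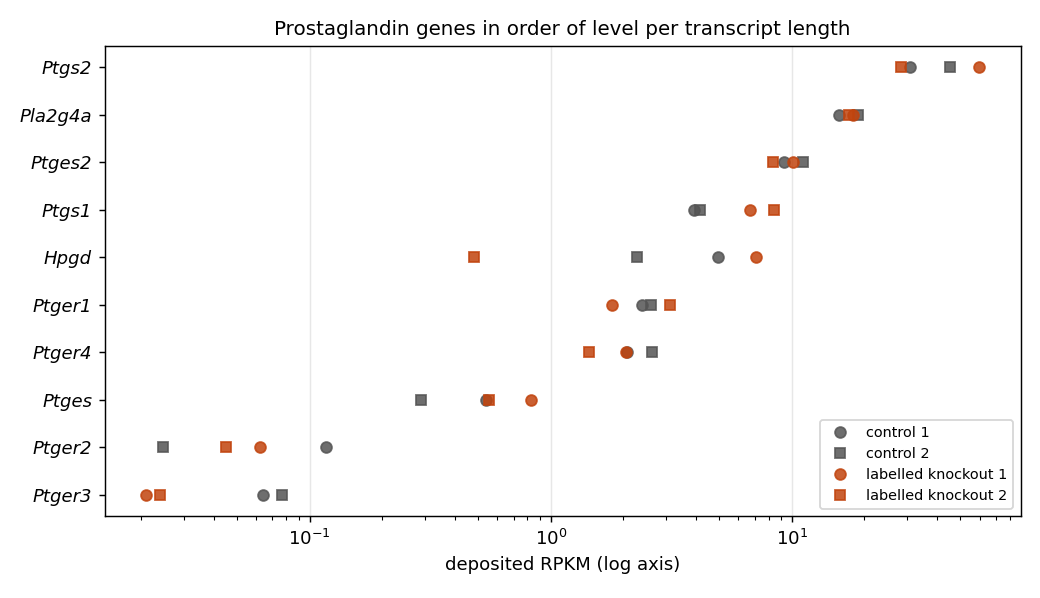
Deposited RPKM (log axis) of the 10 prostaglandin genes, ordered by their mean over the 4 libraries; grey points are controls, orange points the libraries labelled knockout, circles replicate 1 and squares replicate 2. Ptgs2 (28.4 to 59.6 RPKM) and Pla2g4a (15.7 to 18.9 RPKM) stand apart at the top, and Ptger2 and Ptger3 lie below 0.12 RPKM.

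The cyclooxygenase genes differ in how they are controlled, and the RefSeq sequences of the 250 bases before their annotated starts are shown beside that of Hpgd, the gene that varied most between libraries. They come from the RefSeq promoter table of build GRCm38.p6, which holds 9 of the 10 genes. Positions are chr2:36230176-36230425 for Ptgs1, chr1:150099781-150100030 for Ptgs2 and chr8:56294302-56294551 for Hpgd, all on the plus strand. Capitals mark a GC box.
Ptgs1: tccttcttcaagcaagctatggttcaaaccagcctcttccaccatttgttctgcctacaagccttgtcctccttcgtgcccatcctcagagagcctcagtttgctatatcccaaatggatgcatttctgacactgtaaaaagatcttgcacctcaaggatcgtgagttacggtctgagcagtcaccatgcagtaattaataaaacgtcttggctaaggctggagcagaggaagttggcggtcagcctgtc
Ptgs2: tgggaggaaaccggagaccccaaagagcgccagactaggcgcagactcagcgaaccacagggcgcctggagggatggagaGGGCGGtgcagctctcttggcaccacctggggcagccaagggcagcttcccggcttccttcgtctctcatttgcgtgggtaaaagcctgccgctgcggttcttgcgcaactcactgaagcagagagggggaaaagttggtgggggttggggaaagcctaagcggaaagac
Hpgd: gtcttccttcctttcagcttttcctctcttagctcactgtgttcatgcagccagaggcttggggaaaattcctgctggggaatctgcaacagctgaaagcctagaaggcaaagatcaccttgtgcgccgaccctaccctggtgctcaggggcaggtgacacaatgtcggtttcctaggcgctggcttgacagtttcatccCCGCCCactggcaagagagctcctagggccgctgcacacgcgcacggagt

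A GC box (GGGCGG, either strand) begins 170 bases before the start of Ptgs2 and 50 bases before that of Hpgd. This motif occurs in 35.7% of the 32851 windows of 300 bases in the table, which run from 250 bases before a start to 50 after it. In the 50 bases after its start, Ptgs2 also holds a cAMP response element half-site (TGACG, 20.8% of windows), read on the minus strand, and an E-box (CACGTG, 7.15% of windows), which begin at bases 14 and 17 and overlap. Hpgd holds a TATA box (TATAAA, 13.6% of windows) from base 5 after its start. The window of Ptgs1 held none of these 4 motifs. A homeodomain core of the kind HHEX binds (ATTAAA, 13.9% of windows) and an NF-kB site (GGGA and TTCC with 2 bases between, 1.47% of windows) were found in none of the 3 windows. Both strands were searched, for the printed letters only, so other spellings of a site were not looked for. A match describes letters and not a bound site.

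Ptgs1, the constitutive cyclooxygenase gene, stood at 15.9 and 15.6 CPM in control cells against 24.3 and 32.0 CPM in labelled knockout cells. The controls lay close together, and both libraries labelled knockout were above them. In cell populations such as these, a change in the share of cells that express a gene and a change in RNA per cell cannot be told apart. Its mean went from 15.8 ± 0.221 CPM (SD, n = 2) to 28.1 ± 5.41 CPM (SD, n = 2), a fold change of 1.78 with a 95% interval of 1.32 to 2.41. The log2 fold change of 0.84 ± 0.18 (SE) had an unadjusted edgeR p of 0.00248 and missed the threshold after adjustment over all transcripts (edgeR adjusted p = 0.235). DESeq2 gave an adjusted p of 0.0260. With labelled knockout replicate 1 left out the log2 fold change was 0.99 (edgeR adjusted p = 9.61e-07), and without replicate 2 it was 0.61 (edgeR adjusted p = 0.0164). Leaving out control replicate 1 or 2 gave 0.85 or 0.86 (edgeR adjusted p = 0.977 and 0.733). In the first 2 of these fits a single library stands for the labelled knockout group, and 1682 and 1735 transcripts in all were then called, against 37 with every library.

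Some markers of tuft and mesothelial cells, rather than whole marker lists, were higher along with Ptgs1. Of 12 tuft cell markers 11 were in the tables, and their summed level was 9.12 to 15.7 CPM in control cells against 21.5 to 34.4 CPM in labelled knockout cells. Dclk1, a kinase gene of tuft cells, made up most of it, at 6.49 and 4.78 CPM against 17.4 and 27.8 CPM. The other 10 summed to 4.34 to 9.22 CPM in control cells against 4.10 to 6.52 CPM in labelled knockout cells, and none of those 10, which include Trpm5, Pou2f3 and Avil, passed 1.90 CPM in any library. Mesothelial markers summed to 1587 and 2015 CPM in control cells against 3143 and 4493 CPM in the others, nearly all of it Msln. The other 5 genes of that list summed to 2.23 to 3.17 CPM in controls and 3.78 to 6.90 CPM in the other group. Among them Upk1b stood at 0.474 and 0.487 CPM against 2.14 and 3.61 CPM. Of the 5 mesothelial genes tested, Msln and Upk1b lay above both controls in both libraries labelled knockout, against 19.1% of all transcripts tested. Wt1 lay below them, at 1.06 and 0.770 CPM against 0.375 and 0.742 CPM, against 17% of all transcripts tested. Markers of mast cells and platelets, the latter a known source of Ptgs1, summed to 9.73 to 13.6 CPM in controls and 6.67 to 8.29 CPM in the other group over 9 genes. The part of Dclk1-positive or Msln-positive cells in the Ptgs1 difference was not tested.

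Ptgs2, the inducible cyclooxygenase gene, stood at 180.6 and 244 CPM in control cells against 312 and 157 CPM in labelled knockout cells. The highest and the lowest value both came from the libraries labelled knockout, so the groups overlapped fully. The group means were 212 ± 45.1 and 234 ± 110.0 CPM (SD, n = 2 each), with a log2 fold change of 0.14 ± 0.32 (SE) and an edgeR adjusted p of 0.972. Its direction turned on single libraries. The log2 fold change was -0.06 without control replicate 1, -0.46 without labelled knockout replicate 1 and 0.54 without labelled knockout replicate 2. Each of these fits left a single library in 1 group. The libraries labelled knockout lay 1.99-fold apart. As a difference of log2(CPM + 0.5), this gap was larger than that of 95.03% of the transcripts tested. The 12 macrophage markers summed to 165 and 148 CPM in controls and to 127 and 214 CPM in the other group, nearly all of it Cd14. The other 11 summed to 14.4 and 13.8 CPM against 18.9 and 9.19 CPM. Cd68, the most abundant of those 11, stood at 7.36 and 10.8 CPM against 16.2 and 3.94 CPM. Like Ptgs2, it was highest in labelled knockout replicate 1 and lowest in replicate 2. Csf1r, next in level, did not follow this order, at 1.42 and 0.689 CPM against 0.777 and 1.35 CPM. Of the 12 markers, 7 stayed under 1 CPM in every library. The part of macrophages in the Ptgs2 values was not tested.

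Per length, Ptgs2 exceeded Ptgs1 in every library. The ratio of their RPKM values was 7.84 and 10.8 in control cells, with 8.87 and 3.38 in labelled knockout cells. Labelled knockout replicate 2, with the highest Ptgs1 and the lowest Ptgs2, had the lowest ratio, while the other library of that group lay between the controls. The log2 ratio differed by -0.75 between the groups (two-sided exact permutation p = 0.667, n = 2 each), in a design where the smallest possible p is 0.333. Without labelled knockout replicate 2 the difference was -0.05.

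Pla2g4a, which supplies the arachidonic acid, was the steadiest of the 10 genes. It stood at 63.1 and 70.2 CPM in control cells against 64.6 and 65.4 CPM in labelled knockout cells. The group means of 66.7 ± 4.98 and 65.0 ± 0.613 CPM (SD, n = 2 each) differed by a log2 fold change of -0.04, 95% interval -0.37 to 0.30 (edgeR adjusted p = 0.983). Pla2g4a and Ptgs2 are neighbours on chromosome 1 in the RefSeq table of GRCm38.p6, with 0 protein-coding genes between them. From the lowest to the highest CPM of the 4 libraries, Pla2g4a varied 1.11-fold and Ptgs2 1.99-fold.

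The PGE synthase genes differed widely in level. Ptges2, a constitutively expressed synthase gene, stood at 25.6 and 28.4 CPM in control cells against 25.02 and 21.6 CPM in labelled knockout cells, so the groups just failed to overlap. Its log2 fold change was -0.21 ± 0.16 (SE; edgeR adjusted p = 0.903). Ptges, the inducible synthase usually coupled to Ptgs2, stood at 2.77 and 1.38 CPM against 3.80 and 2.68 CPM, from 34 to 142 counts a library. Its groups overlapped, with a log2 fold change of 0.64 ± 0.43 (SE; edgeR adjusted p = 0.864) and a 95% interval of -0.36 to 1.64. Per length, Ptges2 exceeded Ptges 12.3-fold to 38.5-fold in the 4 libraries.

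Hpgd, whose enzyme takes PGE2 out of action, varied more between libraries of 1 group than any other tested gene of the 10. It stood at 12.0 and 5.11 CPM in control cells against 15.4 and 1.10 CPM in labelled knockout cells, from counts of 330, 126, 575 and 34. As with Ptgs2, both the highest and the lowest library were labelled knockout. The gap between those libraries was 14.0-fold, and that between the controls 2.35-fold. As differences of log2(CPM + 0.5), they were larger than those of 99.86% and 97.76% of the transcripts tested. The offset of 0.5 shrinks gaps of transcripts with few counts. The log2 fold change of -0.05 ± 0.94 (SE) had a 95% interval from -2.27 to 2.18 (edgeR adjusted p = 0.995). Without labelled knockout replicate 1 it was -3.00, without labelled knockout replicate 2 it was 0.82 and without control replicate 1 it was 0.70. Each of these fits left a single library in 1 group, so only the effect size is given. The library with the lowest Hpgd is the female one, and since it is the only one, sex and that library cannot be told apart. Abcc4, which exports prostaglandins from cells, was also lowest there, at 82.7 and 108 CPM in the controls, 201 CPM in labelled knockout replicate 1 and 34.1 CPM in replicate 2 (edgeR adjusted p = 0.971).

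**Figure D3:**
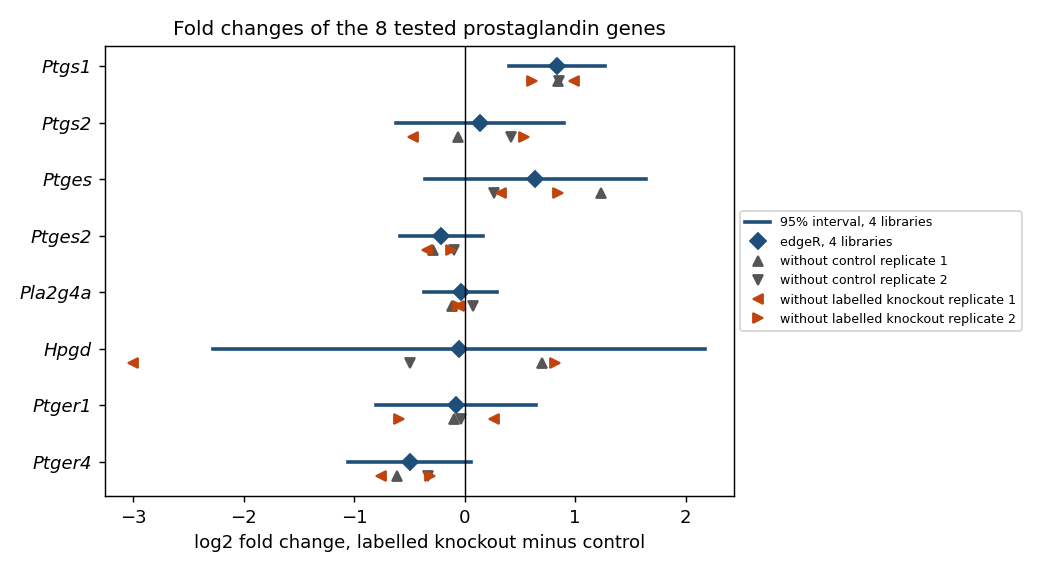
Log2 fold changes, libraries labelled knockout minus controls, of the 8 tested prostaglandin genes; diamonds and lines are the edgeR estimate and its 95% interval over all 4 libraries, triangles the estimate with 1 library left out. Ptgs1 stays between 0.61 and 0.99 whichever library is left out, while Hpgd runs from -3.00 to 0.82 and Ptgs2 from -0.46 to 0.54.

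Among the receptor genes, Ptger4 and Ptger1 carried nearly all of the counts. Ptger4, which raises cAMP, stood at 8.20 and 9.69 CPM in control cells against 7.26 and 5.39 CPM in labelled knockout cells. Both libraries labelled knockout were below both controls. The means of 8.94 ± 1.05 and 6.32 ± 1.32 CPM (SD, n = 2 each) gave a log2 fold change of -0.50 ± 0.24 (SE), its 95% interval reaching from -1.05 to 0.06 (edgeR adjusted p = 0.729). Without labelled knockout replicate 1 the log2 fold change was -0.76 (edgeR adjusted p = 0.0292), with a single library in that group. The second Ptger4 transcript had 0.743 to 0.836 times the counts of the first in the 4 libraries, at 6.85 and 7.62 CPM against 5.52 and 4.00 CPM, and is no independent measurement. The sum of 12 fibroblast and stellate markers was also lower, at 23.96 to 27.8 CPM in controls and 11.6 to 13.6 CPM in labelled knockout cells. Much of this gap was Sparc, the most abundant of them, at 12.0 and 13.1 CPM against 4.53 and 3.48 CPM. Without Sparc the sums were 10.9 to 15.9 and 7.10 to 10.1 CPM. Of the 10 markers tested, 9 had negative fold changes and 1, Postn, a positive one. Only 3, Sparc, Acta2 and Col3a1, lay below both controls in both libraries labelled knockout, against 17% of all transcripts tested. The groups overlapped for the other tested markers. The part of fibroblasts and stellate cells in the Ptger4 difference was not tested.

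Ptger1, the calcium-coupled receptor gene, stood at 6.995 and 7.095 CPM in control cells against 4.71 and 8.64 CPM in labelled knockout cells. The controls lay between the other libraries, and the log2 fold change was -0.08 ± 0.31 (SE; edgeR adjusted p = 0.983). It was 0.27 without labelled knockout replicate 1 (edgeR adjusted p = 0.784). The library kit does not mark strand, so reads from a gene and from transcripts on the opposite strand cannot be told apart. In the GENCODE M21 annotation, 15.3% of the exonic bases of Ptger4 lie within the pseudogene Gm15937 on the opposite strand. A further gene there, the protein-coding Ttc33, overlaps 1.23%. Reads of either could be counted for Ptger4, in an amount that these shares of bases do not give. For Ptger2 and Ptgs1 the largest such overlaps were 4.74% and 3.81%.

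Ptger2 and Ptger3 were close to the limit of detection. Ptger2, the other receptor that raises cAMP, had 17 and 3 counts in control cells, with 11 and 7 in labelled knockout cells. Its exact Poisson 95% intervals ran from 0.361 to 0.992 CPM and from 0.0251 to 0.356 CPM in the controls. These were 0.147 to 0.527 CPM and 0.0908 to 0.465 CPM in the others, so the groups overlapped. Ptger3, the receptor that lowers cAMP, had 5 and 5 counts in control cells, with 2 and 2 in labelled knockout cells. The upper limits of its exact Poisson 95% intervals in labelled knockout cells, 0.194 and 0.233 CPM, lie above the lower limits in the controls, 0.0592 and 0.0658 CPM, so no difference was detectable at this depth. These intervals cover counting error only.

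Per length, Ptger4 took 44.6% and 49.3% of the summed receptor RPKM in control cells, with 52.1% and 31.1% in labelled knockout cells, and Ptger1 took 51.5%, 48.8%, 45.8% and 67.5% in the same order. The share of Ptger4 differed by -5.36 percentage points between the groups (two-sided exact permutation p = 1, n = 2 each). Ptger2 and Ptger3 each took at most 2.52% in any library. With Ptger1 left out, Ptger4 held 91.95% to 96.3% of the rest.

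Other genes of the eicosanoid pathway were taken as lists, and edgeR called 0 genes of any of them over all transcripts. Over all 20949 transcripts tested, 10731 had negative and 10215 positive fold changes, the background for each list below. Among 24 genes that supply arachidonic acid by other routes, 19 were tested, 0 at an unadjusted p under 0.05. Of these, 17 had negative fold changes (median log2 fold change -0.21). Many of the 19 had few counts, among them Pla2g4d with 37 and 15 in control cells against 8 and 21 in labelled knockout cells. The libraries labelled knockout lay below both controls for 5 of the 19, against 17% of all transcripts tested, and above both for 0, against 19.1%. Of the other phospholipases, Pla2g6 stood at 61.5 and 61.9 CPM in control cells against 44.3 and 93.5 CPM in the others. Pla2g16 had the smallest p of the list, at 34.5 and 34.7 CPM against 31.0 and 21.4 CPM (log2 fold change -0.40, edgeR adjusted p = 0.747). The pancreatic secreted phospholipase gene Pla2g1b, a product of acinar cells, was at most 0.182 CPM.

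Synthases of other prostanoids ranged widely. Of 8 genes 7 were tested, 6 with negative fold changes, and 0 had an unadjusted p under 0.05. Ptgds and Hpgds, which make prostaglandin D2, reached at most 1.46 and 0.802 CPM in any library, with log2 fold changes of -1.16 and -1.46 (edgeR adjusted p = 0.766 and 0.772). The prostacyclin synthase gene Ptgis and the thromboxane synthase gene Tbxas1 reached at most 0.619 and 0.510 CPM. Ptges3, a chaperone gene also named as a cytosolic PGE synthase, stood at 67.9 and 68.0 CPM in control cells against 70.4 and 59.6 CPM in the others. Of the other 3 genes, Cbr1 ranged from 23.6 to 32.5 CPM over the 4 libraries, 2810405K02Rik from 11.7 to 17.1 CPM and Akr1b3 from 5.595 to 6.54 CPM.

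Receptors for other prostanoids had little RNA. Of 5 genes 3 were tested, and 0 had an unadjusted p under 0.05. Ptgfr, the prostaglandin F receptor gene, had the smallest p of them, at 1.28 and 0.405 CPM in control cells against 1.23 and 2.97 CPM in labelled knockout cells (edgeR adjusted p = 0.771). Transport and breakdown genes other than Hpgd numbered 7, of which 5 were tested and 0 had an unadjusted p under 0.05. Ptgr2 and Ptgr1, reductases that act after Hpgd, stood at 97.8 to 108 CPM and at 39.97 to 60.1 CPM over the 4 libraries, and the uptake carrier gene Slco2a1 at 0.750 to 1.71 CPM.

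In the leukotriene and lipoxygenase list 11 of 16 genes were tested, 8 with positive fold changes (median log2 fold change 0.22). At an unadjusted p under 0.05 there were 2 of the 11, both higher, against 4.69% of all transcripts higher. Both were epoxide hydrolase genes. Ephx1 stood at 74.8 and 81.0 CPM in control cells against 126 and 127 CPM in labelled knockout cells, a log2 fold change of 0.70 ± 0.14 (SE; edgeR adjusted p = 0.215). Ephx2, whose enzyme opens epoxides of arachidonic acid, stood at 16.4 and 22.9 CPM against 38.7 and 25.8 CPM (log2 fold change 0.72, edgeR adjusted p = 0.511). The lipoxygenase genes themselves stayed at or below 2.32 CPM in every library, and Lta4h, which makes leukotriene B4, stood at 72.4 to 81.0 CPM.

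All 30 genes of the list on PGE2 receptor coupling were tested, 15 with positive and 15 with negative fold changes. The groups did not overlap for 7 on the higher and 7 on the lower side, against 19.1% and 17% of all transcripts. At an unadjusted p under 0.05 there were 3 of the 30, against 7.47% of all transcripts, and all were on the higher side (4.69% of all transcripts): the beta-arrestin gene Arrb1 (log2 fold change 0.68, edgeR adjusted p = 0.328), the adenylyl cyclase gene Adcy9 (0.55, edgeR adjusted p = 0.483) and Prkacb, a catalytic subunit of protein kinase A (0.43, edgeR adjusted p = 0.510). Gnas, the G protein that couples Ptger2 and Ptger4 to cAMP, stood at 211 and 255 CPM in control cells against 305 and 290.1 CPM in labelled knockout cells. Of 10 genes known to respond to cAMP, 9 were tested and 7 had negative fold changes. Both libraries labelled knockout lay below both controls for 4 of the 9, against 17% of all transcripts. Among them Areg, the amphiregulin gene, had an unadjusted p under 0.05, at 48.9 and 51.2 CPM against 38.7 and 36.2 CPM (log2 fold change -0.42, edgeR adjusted p = 0.478).

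**Figure D4:**
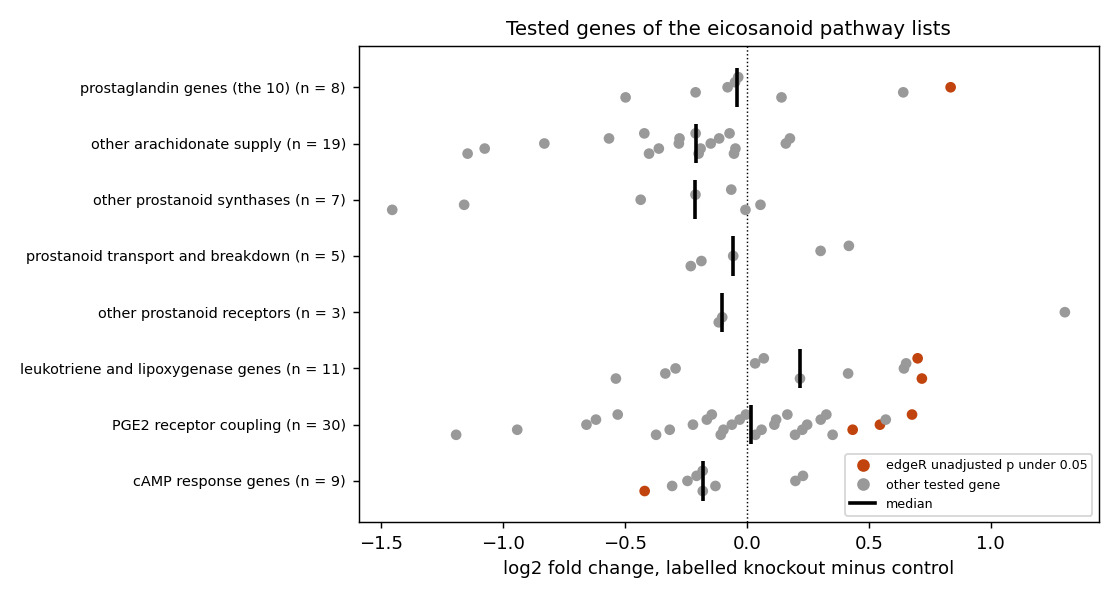
Log2 fold changes, libraries labelled knockout minus controls, of the tested genes of the 10 prostaglandin genes and of 7 lists of related genes; each point is a gene, orange where its unadjusted edgeR p is under 0.05, and black bars are medians. Medians run from -0.21 for arachidonate supply and for other synthases to 0.22 for leukotriene and lipoxygenase genes, and none of these genes passed the adjusted threshold.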

How the data were processed

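RNA was sequenced from 4 libraries, 2 per group. The submitters' processing notes name the build mm9 and edgeR. For the aligner, the counter and the strand setting, a name was not given in the sources used here. Library preparation (TruSeq RNA v2) is per the labels. The authors deposited raw counts and RPKM values for 28644 RefSeq transcripts. The library totals implied by the deposited RPKM differ from the summed counts (1.22 times control replicate 1 for labelled knockout replicate 1, against 39582625 over 25513289 counts), so RPKM serves here for ratios within a library and for levels.

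Counts were filtered with filterByExpr (minimum count 10, minimum total 15), scaled by TMM and tested in R 4.3.3 with edgeR 4.0.16 (glmQLFit, glmQLFTest), Benjamini-Hochberg adjusted over 20949 transcripts, threshold 0.05. SEs are the log2 fold change over the square root of F. DESeq2 1.42.0 and limma 3.58.1 were alternatives. In all, 37 transcripts were called, 27 higher and 10 lower, and with library totals 0 higher and 5 lower.

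The members and lists were chosen with earlier results of these data known. All 10 members are described. From each other list the text names up to 3 genes with the smallest p, and from each marker list up to 3 with the highest mean. Others (Pla2g6, Pla2g1b, Ptgis, Tbxas1, Ptges3, Cbr1, Akr1b3, Ptgr2, Slco2a1, Lta4h, Gnas, Pou2f3, Wt1, Col3a1, Postn, Muc1 and Cftr) were chosen after their values were seen. The edgeR, DESeq2 and limma p-values rest on the spread between the 2 libraries of a group, moderated towards that of all transcripts tested. They measure no other source of variation. In fits with a library left out, only the other group has a spread between libraries. The annotation overlap of Ptger1 is not reported here.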

Additional observations from a re-analysis of the deposited data

How the results depend on the processing

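Of the 8 prostaglandin genes tested, 0 were called with library totals, RLE or upper-quartile factors, without a filter (10 genes tested), with 1 transcript per gene, with counts summed per symbol, with edgeR's robust fit and with limma-trend on log2(RPKM + 1) or log2(RPKM + 0.1). DESeq2 called 1, Ptgs1. With a library left out, 1 group is a single library, and calls among these genes are not counted here. The count over all transcripts moved from 37 to 5 with library totals, 5 with upper-quartile factors, 79 without a filter, 2 with 1 transcript per gene, 5 with counts summed per symbol, 355 with DESeq2, 84 with the robust fit, and 190 and 221 with limma-trend at pseudocounts of 1 and 0.1. The calls higher among them were 0 of 5 with library totals or upper-quartile factors, 0 of 2 with 1 transcript per gene, and 27 of 37 as reported. With each library left out the count ran from 13 to 1735; the cause was not tested.

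Across the 10 alternatives that kept every library, the log2 fold change of Ptgs1 ran from 0.75 to 0.88 and its adjusted p from 0.0260 to 0.389. The sign of Pla2g4a turned with limma-trend on RPKM (0.03 at both pseudocounts, 0.0328 and 0.0348). With each library left out, log2 fold changes ran from -0.46 to 0.54 for Ptgs2, from -0.11 to 0.08 (0.0783, without control replicate 2) for Pla2g4a, from -3.00 to 0.82 for Hpgd and from -0.60 to 0.27 for Ptger1. The difference between the groups in the log2 ratio of Ptgs2 to Ptgs1 ran from -1.44 to -0.05. No paired analysis was possible because the labels give the groups no shared replicate numbers. Depth limits Ptger2 and Ptger3, where 3 counts equal 0.0804 to 0.122 CPM.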

Other observations

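The genes whose pattern over the 4 libraries was most like that of each cyclooxygenase gene were found by the root mean square difference of log2(CPM + 0.5), centred on each gene, among 12821 tested genes with a mean of at least 1 CPM. For Ptgs1 they were Tmie, a gene of the hair cell transduction complex, 4933403G14Rik and 9230114K14Rik, at distances of 0.0244, 0.0498 and 0.0556. Tmie stood at 8.31 and 8.35 CPM in control cells against 13.3 and 16.8 CPM in labelled knockout cells. For Ptgs2 they were Ddx58, which encodes the RNA sensor RIG-I, A030009H04Rik and the ubiquitin ligase gene Rnf128, at distances of 0.0193, 0.0212 and 0.0313. Ddx58 stood at 41.2 and 53.9 CPM in control cells against 70.3 and 34.7 CPM in labelled knockout cells. With 4 libraries and this many genes, close matches are numerous and describe these libraries only.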
